A study of Mus musculus with 15 samples.

Results

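The 10 genes described here encode enzymes that remove superoxide and peroxides, together with the metallothioneins. They are the superoxide dismutases Sod1, Sod2 and Sod3, the catalase gene Cat, the glutathione peroxidases Gpx1 and Gpx3, the peroxiredoxins Prdx1 and Prdx3, and the metallothioneins Mt1 and Mt2. They were chosen by name, and all 10 were found among the 17832 genes of the expression table. All 10 also passed the filter on low values, which left 12869 genes for testing.

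The data are mRNA sequencing of kidneys from male mice of the C57BLKS/J strain aged 22 weeks. The control group was of genotype m/m and received 0.5% methylcellulose, the vehicle (5 libraries). A db/db group received the same vehicle (5 libraries), and another db/db group received dapagliflozin at 1 mg/kg in 0.5% methylcellulose (5 libraries). Mice of genotype db/db carry no functional long form of the leptin receptor in any cell and become obese and diabetic, so the genotype comparison holds obesity and diabetes together, while dapagliflozin inhibits SGLT2, a glucose transporter of the proximal tubule. All groups shared strain, sex, age and vehicle, and no dapagliflozin group of genotype m/m was among the samples. No label states that the libraries of a group are from different animals, and the p-values below reflect no more than the variation among these libraries, some of which may be technical.

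Superoxide leaks from the respiratory chain and from oxidases, and superoxide dismutases turn it into hydrogen peroxide. Catalase in peroxisomes, glutathione peroxidases using glutathione, and peroxiredoxins using thioredoxin then turn peroxide into water. Metallothioneins are small cysteine-rich proteins that hold zinc and copper and can scavenge radicals. The kidney is the main source of the glutathione peroxidase of blood plasma, the product of Gpx3.

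Levels are FPKM, fragments per kilobase of transcript, scaled to a fixed number of mapped reads. Each gene's FPKM could be turned back into whole reads, and these placed the libraries in a pair of sets that cross the groups. The high-read set held m/m 1 to 5 and db/db vehicle 1 to 3, with 14.84 to 16.45 M reads each. The low-read set held db/db vehicle 4 and 5 and dapagliflozin 1 to 5, with 1.60 to 2.29 M reads each. Genotype was therefore compared within the high-read set (db/db vehicle 1 to 3 against m/m 1 to 5) and dapagliflozin within the low-read set (dapagliflozin against db/db vehicle 4 and 5). The proximal tubule markers Lrp2, Cubn, Slc34a1, Slc5a2, Slc22a6 and Aqp1 were present in every library, and their summed level was 2826 to 4481 FPKM across the 15 libraries.

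Libraries were compared in pairs, because some low-read libraries were very alike. For each pair, the variance of the read numbers was divided by the variance that sampling of reads alone would give, over genes with 20 to 99 reads. Pairs within a high-read group had ratios of 1.84 to 7.50 (13 pairs). Of the 21 low-read pairs, 4 lay below 1. Dapagliflozin 2 and 3 had a ratio of 0.724 and dapagliflozin 1 and 2 a ratio of 0.885. The other 2 pairs joined libraries of different groups, with a ratio of 0.729 for db/db vehicle 5 with dapagliflozin 1 and of 0.758 for db/db vehicle 4 with dapagliflozin 5. Over these genes, both low-read vehicle libraries thus differed from a dapagliflozin library by less than sampling noise. Over all genes with 20 or more reads, the ratio was 0.998 for db/db vehicle 5 with dapagliflozin 1. It was 1.66 for db/db vehicle 4 with dapagliflozin 5, 1.02 for dapagliflozin 2 and 3, and 1.73 for dapagliflozin 1 and 2. Dapagliflozin 2 and 3 were averaged and counted as 1 sample, and each dapagliflozin fold change is also given without dapagliflozin 1 and 5, an alternative chosen after these ratios were seen. Whether libraries of these pairs hold reads in common was not tested. The intervals of the dapagliflozin comparison assume that they do not, and reads held in common across groups would make the measured differences too small.

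**Figure D1:**
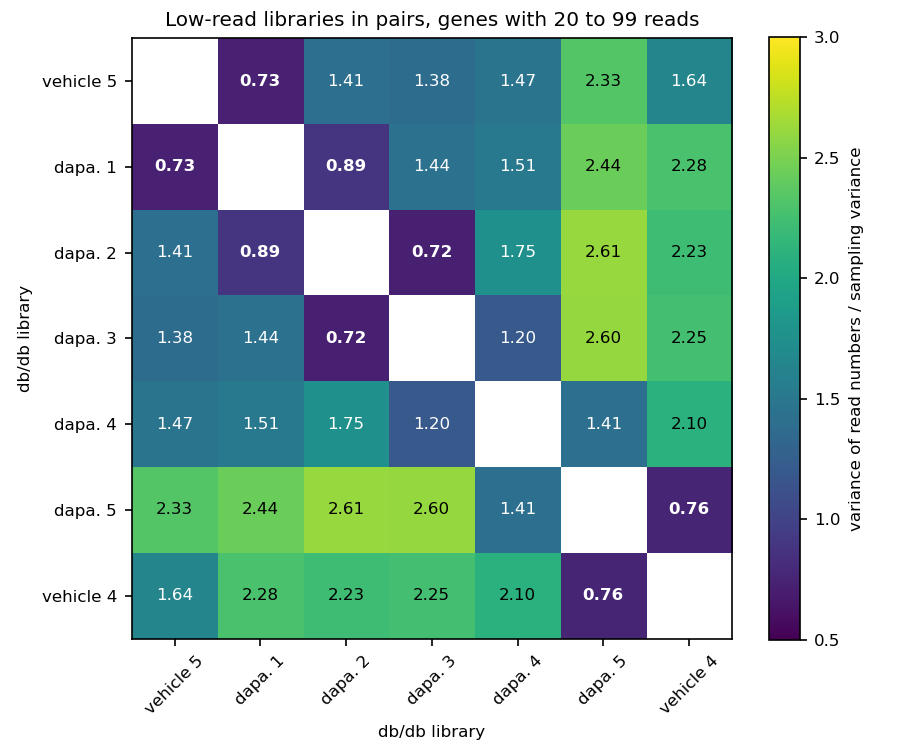
Ratio of the variance of read numbers to sampling variance for each pair of the 7 low-read libraries, over genes with 20 to 99 reads; both axes list the db/db libraries (dapa., dapagliflozin). Bold values lie below 1, and 2 of these 4 pairs join a vehicle with a dapagliflozin library.

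In db/db kidneys 3 of the 10 genes rose and 3 fell relative to m/m. The genes that rose were Mt1, Mt2 and Gpx3, and those that fell were Sod1, Sod3 and Prdx1. Sod2, Cat, Gpx1 and Prdx3 did not pass the test. The test was limma on log2(FPKM + 1) with Benjamini-Hochberg adjustment over all 12869 genes and a threshold of 0.05. The same test called 37.8% of all genes, with 29.5% higher and 8.29% lower, so that calls were common in this comparison. The median log2 fold change of the 10 genes was -0.02, against 0.16 for all tested genes. With median-of-ratios scaling the median of all genes moved to -0.0046, and the calls moved from 3793 higher and 1067 lower to 1485 higher and 2344 lower (1582 higher and 1747 lower with quantile normalization). The 6 called members kept their direction and their call under median-of-ratios scaling, and Sod2 and Gpx1 were then also called lower. Fold changes below are on the deposited FPKM scale, with the value relative to the median of all genes where it helps. Since the tissue is bulk kidney, fewer cells of a type and less RNA per cell cannot be told apart.

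**Figure D2:**
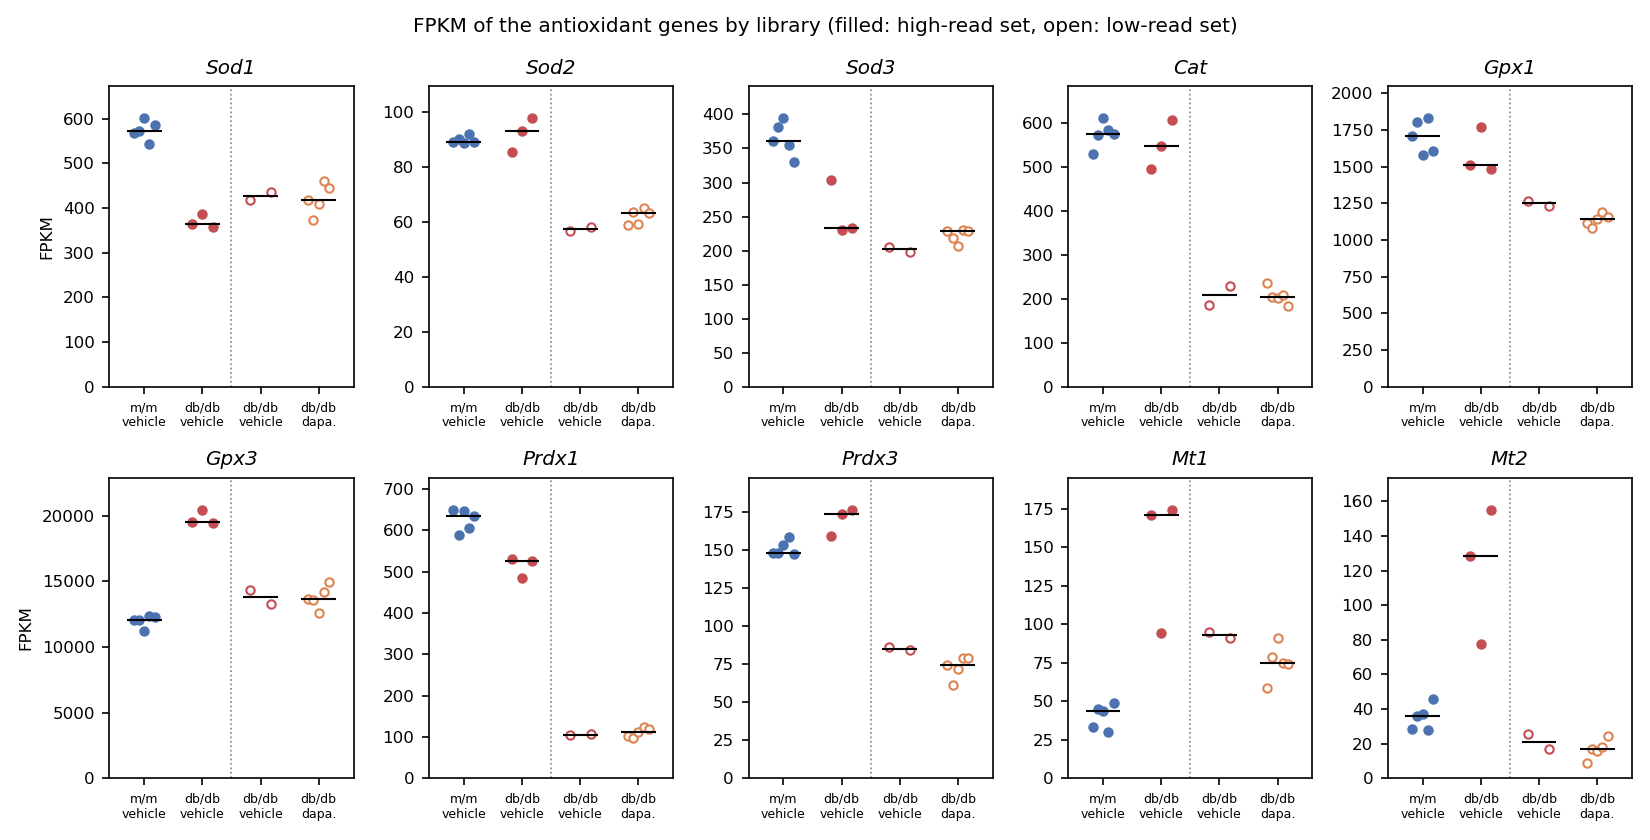
FPKM of each of the 10 genes in every library, on linear axes from 0. Points are libraries, filled for the high-read and open for the low-read set, the black line is the group median, and the dotted line parts the sets. Mt1, Mt2 and Gpx3 lay higher and Sod1, Sod3 and Prdx1 lower in db/db than in m/m libraries of the high-read set, without overlap.

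Sod1 encodes the copper-zinc superoxide dismutase of the cytosol. Its level in m/m 1 to 5 was 569, 574, 601, 543 and 586 FPKM, and in db/db vehicle 1 to 3 it was 364, 388 and 357 FPKM. The highest db/db library lay far below the lowest m/m library. Mean levels were 575 ± 21.5 FPKM (SD, n = 5) in m/m and 369.5 ± 16.1 FPKM (SD, n = 3) in db/db, a log2 fold change of -0.64 ± 0.06 (SE) with a limma adjusted p of 5.33e-06. Relative to the median of all genes the difference was -0.79, and across 29 alternative settings it ran from -0.86 to -0.55.

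Sod3 encodes the secreted copper-zinc superoxide dismutase that binds to the extracellular matrix. Its level was 362, 382, 394, 354 and 331 FPKM in m/m 1 to 5 and 304, 230 and 234 FPKM in db/db vehicle 1 to 3. All db/db libraries lay below all m/m libraries, with db/db vehicle 1 nearest to them. The mean fell from 365 ± 24.8 FPKM (SD, n = 5) to 256 ± 41.6 FPKM (SD, n = 3), a log2 fold change of -0.52 ± 0.086 (SE) with a limma adjusted p of 5.07e-04. Without any single library it stayed between -0.65 and -0.45.

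Sod2, the manganese superoxide dismutase of mitochondria, was measured at 88.9, 90.15, 88.7, 91.85 and 89.0 FPKM in m/m and at 85.1, 93.0 and 97.6 FPKM in db/db vehicle 1 to 3. The db/db libraries lay on both sides of the m/m libraries. The log2 fold change was 0.03, with a 95% interval of -0.08 to 0.15 and a limma adjusted p of 0.66. With median-of-ratios scaling it was -0.19 with an adjusted p of 0.0306, so that its direction rests on the scaling. Differences in fold change between the 3 dismutase genes were not tested.

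Cat encodes catalase, the peroxide-splitting enzyme of peroxisomes. Its level was 529, 572, 610, 583 and 575 FPKM in m/m and 495, 546 and 606 FPKM in db/db vehicle 1 to 3, and the groups overlapped. The log2 fold change was -0.07, with a 95% interval of -0.26 to 0.13 and a limma adjusted p of 0.592. It was 0.10 with quantile normalization.

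Gpx3 encodes the secreted glutathione peroxidase, a selenoprotein. Its level was 12060, 12074, 11226, 12342 and 12308 FPKM in m/m 1 to 5 and 19483, 20451 and 19450 FPKM in db/db vehicle 1 to 3. The gap between the groups was many times the spread within either. The mean rose from 12002 ± 453 FPKM (SD, n = 5) to 19795 ± 568.2 FPKM (SD, n = 3), a log2 fold change of 0.72 ± 0.07 (SE) with a limma adjusted p of 6.12e-06. By FPKM, Gpx3 had rank 2 of all genes in every m/m library and rank 1 in every db/db library, treated or not. It made up 2.72% to 3.02% of all FPKM in m/m and 4.92% to 5.23% in db/db vehicle 1 to 3. In the low-read db/db libraries, whose set has no m/m library, it made up 3.44% to 3.91%. Without the filter on low values the fold change was the same and the adjusted p was 0.0683, so the call ended in that setting. Its FPKM was the highest of the 10 genes in every library.

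Gpx1, the glutathione peroxidase of cytosol and mitochondria and also a selenoprotein, had 1708, 1804, 1577, 1831 and 1608 FPKM in m/m and 1512, 1774 and 1482 FPKM in db/db vehicle 1 to 3. Db/db vehicle 2 lay among the m/m libraries and the other db/db libraries below them. The log2 fold change was -0.10, with a 95% interval of -0.26 to 0.05 and a limma adjusted p of 0.275. With median-of-ratios scaling it was -0.32 with an adjusted p of 0.00625, and with quantile normalization it was 0.08.

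Prdx1, the peroxiredoxin of the cytosol, had 650.1, 590.0, 647, 606 and 636 FPKM in m/m and 530.3, 485 and 526.5 FPKM in db/db vehicle 1 to 3. All db/db libraries lay below all m/m libraries. The mean fell from 626 ± 26.5 FPKM (SD, n = 5) to 514 ± 24.98 FPKM (SD, n = 3), a log2 fold change of -0.28 ± 0.068 (SE) with a limma adjusted p of 0.0055. With quantile normalization it was -0.13 and no longer called (adjusted p 0.151).

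Prdx3, the peroxiredoxin of mitochondria, had 148, 148, 153, 158 and 147.5 FPKM in m/m and 159, 173 and 176 FPKM in db/db vehicle 1 to 3. The groups did not overlap, but the lowest db/db and the highest m/m library lay close together. The log2 fold change was 0.16, which was 0.01 above the median of all genes, with a 95% interval of 0.03 to 0.30 and a limma adjusted p of 0.0518. It was -0.05 with median-of-ratios scaling, and it was called without db/db vehicle 1 (0.21, adjusted p 0.0361). In all, 7 of the 10 genes had groups that did not overlap, against 47.7% of all tested genes. They were 4 genes that were higher, against 37.5% of all genes, and 3 that were lower, against 10.2%.

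**Figure D3:**
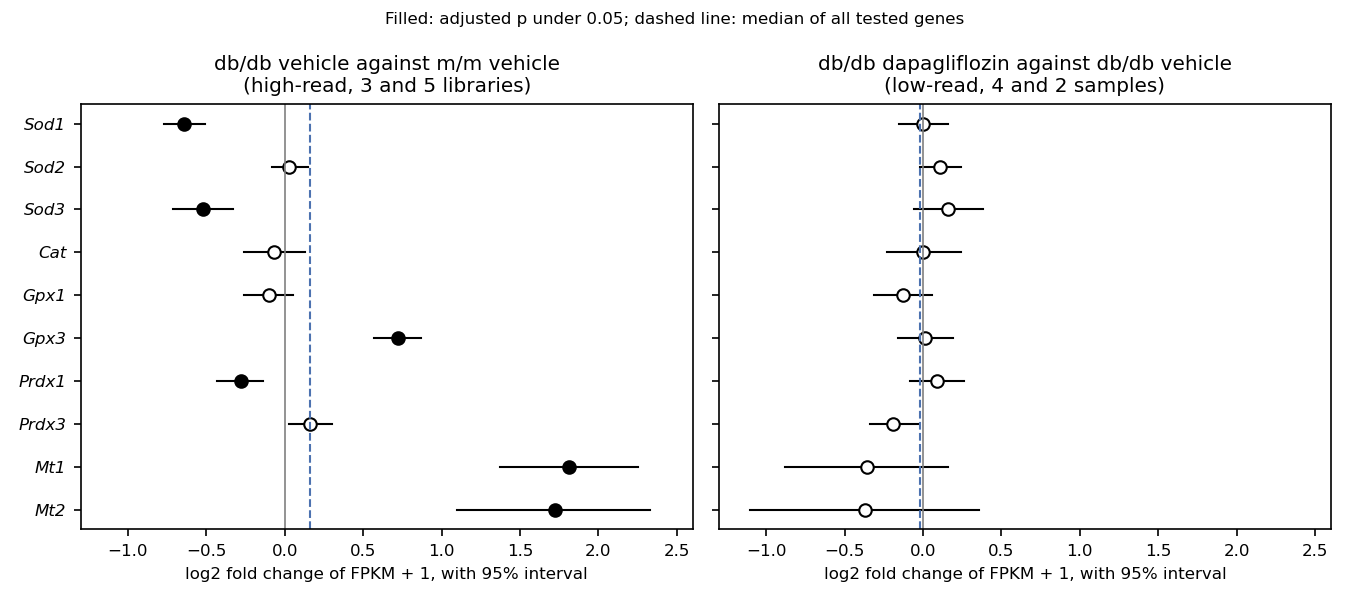
Log2 fold changes of FPKM + 1 with 95% intervals for the 10 genes, db/db vehicle minus m/m (left, high-read set) and dapagliflozin minus db/db vehicle (right, low-read set). Filled points have a limma adjusted p under 0.05, and the dashed line is the median of all tested genes, at 0.16 on the left and -0.02 on the right. On the left 6 genes are filled and on the right none.

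The metallothioneins showed the largest fold changes among the 10 genes. Mt1 had 33.5, 45.1, 43.8, 29.8 and 49.1 FPKM in m/m 1 to 5 and 171, 94.1 and 174 FPKM in db/db vehicle 1 to 3. Mt2 had 28.5, 36.1, 37.0, 27.9 and 45.9 FPKM in m/m and 128, 77.5 and 155 FPKM in db/db vehicle 1 to 3. For both genes each of db/db vehicle 1 to 3 lay above every m/m library, and db/db vehicle 2 was the lowest of these 3. Mt1 rose by a log2 fold change of 1.81 ± 0.20 (SE, limma adjusted p 2.37e-05), which was 3.50-fold on FPKM + 1. Mt2 rose by 1.72 ± 0.29 (SE, limma adjusted p 5.43e-04), which was 3.28-fold. Leaving out any single library kept the log2 fold change between 1.65 and 2.10 for Mt1 and between 1.51 and 2.0 for Mt2. Within the high-read set the ratio of Mt1 to Mt2 was 1.07 to 1.33 in every library, so the genes moved together.

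Mt1 and Mt2 are neighbours on chromosome 8 and lie on the same strand, 5315 bases apart in the GRCm38.p6 assembly. Their promoters are shown because both genes are known targets of the zinc sensor MTF1, which binds metal response elements, and because these members moved together. The sequences are RefSeq's, in GRCm38.p6, and hold the 250 bases before each gene's start on the plus strand, chr8:94178839-94179088 for Mt1 and chr8:94172368-94172617 for Mt2. Capitals mark matches to TGCGCNC or TGCACNC, the forms of the metal response element that were searched on both strands.
Mt1 promoter: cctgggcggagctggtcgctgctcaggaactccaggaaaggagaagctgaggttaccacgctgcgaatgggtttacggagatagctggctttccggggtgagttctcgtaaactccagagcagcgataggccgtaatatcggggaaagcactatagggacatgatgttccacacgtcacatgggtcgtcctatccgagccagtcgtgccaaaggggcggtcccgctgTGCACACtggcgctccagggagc
Mt2 promoter: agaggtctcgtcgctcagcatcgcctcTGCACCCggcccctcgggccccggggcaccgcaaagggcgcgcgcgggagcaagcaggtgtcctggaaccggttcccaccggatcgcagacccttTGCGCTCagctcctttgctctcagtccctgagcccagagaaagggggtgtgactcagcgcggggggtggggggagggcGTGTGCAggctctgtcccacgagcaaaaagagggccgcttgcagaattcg
Bases after the RefSeq start or further upstream were not searched, so these counts are not those of whole promoters. Whether the RefSeq start is the main start of transcription was not tested. The Mt1 window held 1 match, starting at base -23 on the plus strand. The Mt2 window held 3, at -223 and -128 on the plus strand and at -50 on the minus strand. A promoter sequence was at hand for 9 of the 10 genes (not Sod3), and the other 7 held no match. Of 32851 mouse promoters, 21.4% held at least 1 match and 1.26% held 3 or more. The antioxidant response element TGACNNNGC, bound by the product of Nfe2l2, was searched in the same windows. It was found once each in those of Mt2 (-79, plus strand), Sod1 (-56, minus strand) and Prdx1 (-133, minus strand). Among all promoters, 10.2% held it in this window. In none of the 9 promoters did the motifs overlap. Of the genes with this motif in the window Mt2 rose while Sod1 and Prdx1 fell, and copies outside the windows were not counted.

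Markers of cell types moved in the same libraries. The summed proximal tubule markers were 3833 to 4388 FPKM in m/m and 2826, 3827 and 2990 FPKM in db/db vehicle 1, 2 and 3, and 5 of the 6 fell (4 of the 6 without db/db vehicle 1, where 1 then rose, and 3 of the 6 without db/db vehicle 3). The summed neutrophil markers S100a8, S100a9, Ngp and Camp were 0.913 to 6.55 FPKM in m/m and 82.6, 4.71 and 71.4 FPKM in db/db vehicle 1, 2 and 3, and all 3 that were tested rose. Without db/db vehicle 1, or without db/db vehicle 3, 1 of the 3 was called. Among db/db vehicle 1 to 3, library 2 thus had the lowest Mt1, Mt2 and neutrophil markers and the highest proximal tubule markers. The summed macrophage markers were 43.9 to 71.9 FPKM in m/m and 151, 44.4 and 80.7 FPKM in db/db vehicle 1, 2 and 3, with none of the 5 called. Podocyte markers were 68.0 to 85.7 FPKM in m/m and 122 to 138 FPKM in db/db vehicle 1 to 3, and all 3 rose. Distal convoluted tubule markers (3 of 3), principal cell markers (2 of 3), intercalated cell markers (3 of 4) and vascular smooth muscle markers (3 of 3) also rose. No call was made for thick ascending limb (0 of 2), red blood cell (0 of 5) or lymphocyte markers (0 of 1). The red blood cell result rested on m/m 2, and without it all 5 rose (1 of 5 without db/db vehicle 1). Their sum was 205 FPKM in m/m 2, 36.2 to 53.2 FPKM in the other m/m libraries, and 63.0, 301 and 145 FPKM in db/db vehicle 1, 2 and 3. Without db/db vehicle 1, or with median-of-ratios scaling, 1 of the 2 thick ascending limb markers fell. Of the endothelial markers 1 of 4 rose (0 higher and 2 lower after median-of-ratios scaling), and of the fibroblast markers 1 of 3. Adipocyte and adrenal cortex markers summed to at most 0.573 FPKM in any library. The part of these cell types in the levels of the 10 genes was not tested.

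Genes of the surrounding pathways were counted by 7 lists. Of their 85 tested genes, 29 rose and 8 fell in db/db (43.5%, against 37.8% of all genes), and with median-of-ratios scaling 9 rose and 21 fell. Their directions are therefore given on the deposited scale, with the value after median-of-ratios scaling where the direction turned or the call ended. The plot of fold changes by list places the 10 genes beside them.

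Among other peroxidases 3 of 8 rose and 1 fell. Prdx2, a further cytosolic peroxiredoxin, had a log2 fold change of 0.27 (limma adjusted p 0.00349) that was 0.05 and not called after median-of-ratios scaling. Prdx4, the peroxiredoxin of the endoplasmic reticulum, rose by 0.42 (0.23 and not called after that scaling), and Prdx5, found in mitochondria and peroxisomes, had -0.19 (limma adjusted p 0.0179). Gpx4, which reduces lipid peroxides and guards against ferroptosis, had 0.20 (limma adjusted p 0.0322), which turned to -0.02 after that scaling. The calls of Prdx4 and Prdx5 ended without db/db vehicle 1 (log2 fold changes 0.35 and -0.17) and without db/db vehicle 3 (0.41 and -0.15). That of Gpx4 ended without m/m 1, 3, 4 or 5 or db/db vehicle 1 or 2, with log2 fold changes of 0.16 to 0.20.

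Among thioredoxin and glutaredoxin genes 7 of 15 rose and none fell (3 rose and 2 fell after median-of-ratios scaling, and all 15 were tested with limma). Txnip, which encodes an inhibitor of thioredoxin and is induced by glucose, rose from 103 ± 19.7 FPKM (SD, n = 5) to 255 ± 56.5 FPKM (SD, n = 3), a log2 fold change of 1.30 (limma adjusted p 7.42e-05). Srxn1, which encodes the sulfiredoxin that reactivates peroxiredoxins, rose by 0.52 (limma adjusted p 1.85e-04). Glrx, a cytosolic glutaredoxin, rose by 0.64. Glrx3, a glutaredoxin of iron-sulfur cluster handling, had 0.20, which turned to -0.01 after that scaling and was not called without db/db vehicle 3 (0.16). The calls of Txnip and Glrx did not hold in every alternative setting, where the highest limma adjusted p was 0.0639 and 0.942.

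Among genes whose products make superoxide or peroxide 3 of 16 rose and 1 fell (3 rose and 4 fell after median-of-ratios scaling). Maob and Maoa, the monoamine oxidases of the mitochondrial outer membrane, rose by 1.82 and 0.60 on the log2 scale (limma adjusted p 7.66e-05 and 0.00222). Xdh, xanthine dehydrogenase, rose by 1.11 (limma adjusted p 0.00174).

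Among genes of selenoprotein synthesis and selenium supply 2 of 9 rose and 3 fell (none rose and 5 fell after median-of-ratios scaling). Selenop, which encodes the selenium carrier of plasma, fell from 1783 ± 178 FPKM (SD, n = 5) to 507 ± 49.4 FPKM (SD, n = 3), a log2 fold change of -1.81 ± 0.11 (SE, limma adjusted p 9.34e-08). Lrp2, which encodes megalin, a receptor that takes up filtered selenoproteins, fell by 0.74 on the log2 scale (limma adjusted p 2.81e-05). Sephs2, selenophosphate synthetase, fell by 0.38, while Secisbp2, which binds selenoprotein mRNAs, had 0.37 (0.16 and not called after that scaling). The selenoprotein genes Gpx3 and Selenop thus moved in opposite directions.

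Among copper, zinc and metal genes 5 of 14 rose and 1 fell (1 rose and 4 fell after median-of-ratios scaling). The zinc importer gene Slc39a8 fell by 0.90 on the log2 scale (limma adjusted p 1.21e-04), and Slc39a5, another zinc importer gene, rose by 0.83 (limma adjusted p 0.00146). Atp7a, a copper exporter, and Atox1, a copper chaperone, had 0.35 and 0.49 (0.15 and 0.27 after that scaling, neither called). Without db/db vehicle 3, Atox1 had 0.35 and was not called. Among peroxisome assembly genes 5 of 15 rose and 1 fell (1 rose and 4 fell after that scaling). Pex11a, which promotes peroxisome division, rose by 0.86 (limma adjusted p 5.54e-06), and Pex2 fell by 0.35. Pex16 and Pex14 had 0.38 and 0.31 (0.17 and 0.10 after that scaling, neither called).

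Among 8 regulators 4 rose and 1 fell (1 each after median-of-ratios scaling). Nfe2l2 encodes the antioxidant factor NRF2. It rose from 33.4 ± 2.18 FPKM (SD, n = 5) to 61.9 ± 12.7 FPKM (SD, n = 3), a log2 fold change of 0.85 (limma adjusted p 3.67e-05). Its call did not hold in every alternative setting, where the highest limma adjusted p was 0.103. In the low-read set, which has no m/m library, its db/db vehicle mean was 31 FPKM. Foxo3, Ppargc1a and Sirt1 had 0.42, 0.38 and 0.37 (0.21, 0.18 and 0.17 after that scaling, none called). Foxo3 encodes a stress-response factor, Ppargc1a a coactivator of mitochondrial genes and Sirt1 a deacetylase. Without db/db vehicle 2, Ppargc1a had 0.29 and Sirt1 had 0.25, and neither was called.

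**Figure D4:**
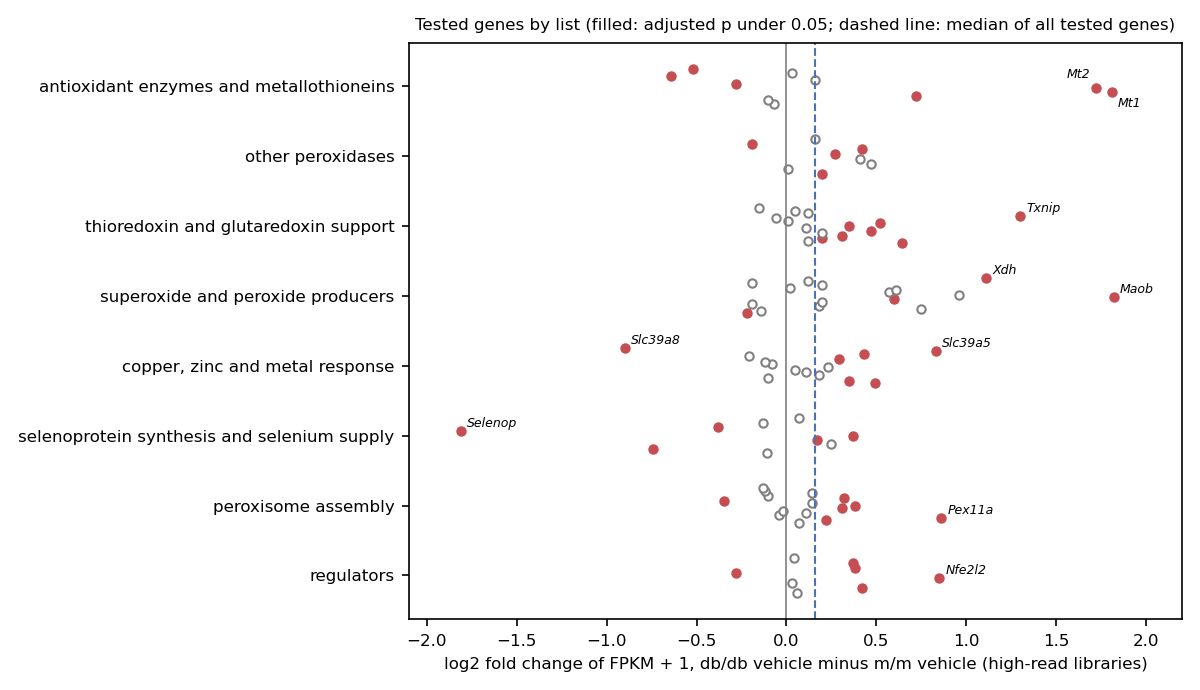
Log2 fold changes of FPKM + 1, db/db vehicle minus m/m, for the tested genes of each list (rows), with filled points at a limma adjusted p under 0.05 and genes named where a called change exceeded 0.8. The dashed line marks the median of all tested genes, 0.16. Mt1, Mt2 and Maob stand at the right, near 1.8, and Selenop at the left, at -1.81.

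Dapagliflozin was compared with vehicle in the low-read set, and none of the 10 genes passed the limma test. At an unadjusted p under 0.05 there was 1, Prdx3. The background was small, since 0.272% of all tested genes were called (16 genes or 0.124% higher, 19 genes or 0.148% lower) and 1631 had an unadjusted p under 0.05. Without dapagliflozin 1 and 5 limma called 479 genes, and still none of the 10. The median log2 fold change was 0.0021 for the 10 genes and -0.02 for all genes. The dapagliflozin arm held 4 samples after averaging and the vehicle arm 2.

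Sod1 had 418 and 435.5 FPKM in db/db vehicle 4 and 5 and 418, 373, 409, 460 and 444 FPKM in dapagliflozin 1 to 5, and the log2 fold change was 0.0019 with a 95% interval of -0.15 to 0.16. Gpx3 had 14324 and 13298 FPKM in vehicle and 13657, 13542, 12613, 14190 and 14913 FPKM in dapagliflozin, with a log2 fold change of 0.01 and an interval of -0.16 to 0.19. In both genes the dapagliflozin libraries lay on both sides of the vehicle libraries. Cat had 187 and 228.5 FPKM in vehicle and 235, 205, 202.5, 209 and 183 FPKM in dapagliflozin, with a log2 fold change of 0.0023 and an interval of -0.23 to 0.24. Prdx1 had 105 and 106 FPKM in vehicle and 103, 97.3, 111, 124 and 118.5 FPKM in dapagliflozin, with 0.09 and an interval of -0.08 to 0.26. Without dapagliflozin 1 and 5 the log2 fold changes were -0.01 for Sod1 (95% interval -0.20 to 0.18), -0.02 for Gpx3 (-0.26 to 0.22), -0.0004 for Cat (-0.25 to 0.25) and 0.11 for Prdx1 (-0.09 to 0.31). For these 4 genes differences within the intervals were not detectable.

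In 4 of the 10 genes the dapagliflozin and vehicle libraries did not overlap, against 12.8% of all tested genes. Sod2 and Sod3 were higher, as 5.73% of all genes were, and Gpx1 and Prdx3 lower, as 7.09% were. Sod2 had 56.8 and 58.0 FPKM in vehicle and 58.8, 63.4, 59.2, 65.0 and 63.2 FPKM in dapagliflozin (log2 fold change 0.11, limma adjusted p 0.494). Sod3 had 206 and 198 FPKM in vehicle and 228, 218, 207, 231 and 228 FPKM in dapagliflozin (0.16, limma adjusted p 0.574). Both lay slightly higher with dapagliflozin in every library. Gpx1 had 1267 and 1233 FPKM in vehicle and 1116, 1081, 1142, 1192 and 1161 FPKM in dapagliflozin (-0.13, limma adjusted p 0.587). Prdx3 had 85.9 and 83.9 FPKM in vehicle and 74.7, 61.6, 71.7, 79.1 and 78.7 FPKM in dapagliflozin (-0.19, limma adjusted p 0.306, -0.23 and 0.162 without dapagliflozin 1 and 5). Without dapagliflozin 1 and 5 the log2 fold changes of Sod2, Sod3 and Gpx1 were 0.14, 0.13 and -0.12 (limma adjusted p 0.307, 0.594 and 0.577). These differences did not pass the test.

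Mt1 had 94.8 and 91.2 FPKM in db/db vehicle 4 and 5 and 58.3, 78.8, 91.3, 74.7 and 74.1 FPKM in dapagliflozin 1 to 5. Dapagliflozin 3 lay among the vehicle libraries and the others below. The log2 fold change was -0.36, with a 95% interval of -0.88 to 0.16 and a limma adjusted p of 0.589, and it was -0.22 without dapagliflozin 1 and 5. Mt2 had 25.3 and 17.1 FPKM in vehicle and 8.65, 17.2, 15.7, 18.1 and 24.4 FPKM in dapagliflozin, with -0.37 and an interval of -1.10 to 0.36 (-0.26 and -0.92 to 0.40 without dapagliflozin 1 and 5). These Mt2 levels rest on 9 to 31 reads per library. The Mt2 log2 fold change was -0.10 without db/db vehicle 4 and also without dapagliflozin 1, -0.64 without db/db vehicle 5 and -0.57 without dapagliflozin 5. A difference of Mt2 within its interval was not detectable. The SE was 0.34 here and 0.29 in the genotype comparison, from the shared estimate of the spread, and the part of read depth in it was not tested.

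Of the 85 tested pathway genes 1 was called with dapagliflozin. Pex7, a receptor that brings proteins into peroxisomes, fell from 18.1 ± 2.02 FPKM (SD, n = 2) to 13.0 ± 0.584 FPKM (SD, n = 4), a log2 fold change of -0.44 (limma adjusted p 0.0255). The call ended with median-of-ratios scaling (adjusted p 0.0705) and without m/m 1, m/m 2, db/db vehicle 4, db/db vehicle 5 or dapagliflozin 4 (adjusted p 0.0514 to 0.168). Without dapagliflozin 1 and 5 it was -0.48 (limma adjusted p 0.0113).

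The sets themselves differed at 9 of the 10 genes. Between db/db vehicle libraries, which share genotype and treatment, limma called 8 of the 10 lower and 1 higher in the low-read set, where 61.1% of all tested genes were called (42.3% lower and 18.8% higher). Prdx1 was 105 ± 1.05 FPKM (SD, n = 2) in the low-read set and 514 ± 24.98 FPKM (SD, n = 3) in the high-read set, a log2 difference of -2.27 (limma adjusted p 2.79e-11). Mt2 differed by -2.42 and Cat by -1.40, while Mt1 differed by -0.60 (limma adjusted p 0.0577), and Sod1 was higher by 0.21. The ratio of Mt1 to Mt2 was 3.04 to 6.74 in the low-read libraries. In 6 of the 10 genes (Sod2, Cat, Gpx1, Prdx1, Prdx3 and Mt2) this difference was larger in size than the genotype difference of the same gene. Dapagliflozin and m/m libraries lie in different sets, so treatment and set cannot be told apart there, and whether dapagliflozin brought any of the 10 genes toward m/m levels was not tested.

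Genes with the most similar patterns were found by Pearson correlation of log2(FPKM + 1) over the 14 samples, each centred on the mean of its library set. The values describe these samples, which share libraries and the genotype step. The aldehyde dehydrogenase gene Aldh3a2 (0.99) and Cyb5a (0.986), which encodes cytochrome b5, were nearest to Sod1, and both fell in db/db, by 0.83 and 0.96 on the log2 scale. Acaa2 (0.985), a thiolase of mitochondrial fatty acid oxidation, and Apmap (0.984) were nearest to Gpx3 and rose by 1.62 and 0.81. Mpv17l (0.948) and Slc22a7 (0.944) were nearest to Sod3, and the organic anion transporter gene Slc22a7 fell by 5.07 (limma adjusted p 3.07e-06). Nfe2l2 (0.965) and the iron exporter gene Slc40a1 (0.961) were nearest to Mt1. Stat3 (0.961), a factor of cytokine signalling, and Ezr (0.956) were nearest to Mt2. Cd55 (0.939) and Tpmt (0.933) were nearest to Prdx1 and fell by 0.38 and 0.54, and Rbak (0.944) and P2ry1 (0.922) were nearest to Prdx3. The nearest genes of Sod2, Cat and Gpx1 reached 0.891, 0.921 and 0.846, and none of them was called in db/db.

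Some values may hold reads of other genes. In the GENCODE annotation an exon of Mt2 is overlapped on the opposite strand by the antisense gene Gm45774, and the strand setting of the counting is not given in the sources used here. Sod1 shared 3.42% of its 50-base stretches with the processed pseudogene Gm8566. Prdx1 shared 8.29% with 39 other genes, among them the pseudogenes Gm21399 (5.44%) and Gm7204 (4.6%), and Sod2 shared 21.0% with 202. Mt1 and Mt2 shared none with each other.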

How the data were processed

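Per the labels' protocols, total kidney RNA was isolated with a mirVana kit, and TruSeq Stranded mRNA libraries were built from it. The authors deposited FPKM values in 1 table of 17832 genes and 15 libraries. The submitters' processing notes name Cufflinks, HTSeq, HISAT2 and Trimmomatic and the build GRCm39. Versions, settings and strand handling were not given in the sources used here.

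Every FPKM value was a whole multiple of what 1 read is worth (100% of values, relative tolerance 1e-08), which gave reads per gene and library. They were used for depth and library pairs, not for a count model. The 8 libraries above 5 M reads (15.6 M on average) formed the high-read set, and the 7 below it (1.90 M on average) formed the low-read set.

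Tests used limma 3.58.1 in R 4.3.3 with an intensity trend on log2(FPKM + 1), 2-sided, over the 12869 genes whose mean FPKM was 0.5 or more. A single fit of 14 samples held a mean for each group within its set, so all groups share an estimate of the spread, and the spread of low-read libraries is assumed to equal that of the rest. Intervals are 95% intervals of the fit. Fold changes on this scale understate those of low genes. Dapagliflozin 2 and 3 were averaged. Scripts in Python 3.11.15 made the tables. The recovery of reads and the limma fit, the latter without averaging of samples, were tested on simulated data.

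The 10 genes and the lists were chosen with earlier results of these data known. Genes named from each list are up to 4 called genes by smallest adjusted p, and for each of the 10 genes the 2 with the most correlated pattern; Pex7 and the markers follow the same lists. A gene that this rule would name is left out and not reported here. Alternatives were other pseudocounts (0.1 and 0.01) and filters, 3 scalings, array weights, a block for the replicate number, only the groups compared, pooled sets, and each library left out. The fits without dapagliflozin 1 and 5, and with dapagliflozin 1, 2 and 3 averaged, were added after the data were seen. Promoters and gene neighbours are RefSeq's in GRCm38.p6, another build than that of the files, and were matched by symbol (10 of 10 genes, 9 with a promoter). Overlapping exons and shared stretches of 50 bases came from a GENCODE annotation of GRCm38.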

Additional observations from a re-analysis of the deposited data

Results flagged for a closer look

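In 30 groups of 4 or 5 samples, each gene's highest and lowest samples were compared with the rest by Dixon's criterion. Chance passes it in about 1 group in 20. The db/db vehicle groups join libraries of both sets, so this rate need not hold for them. In these groups 2 samples stood apart. Sod3 in the averaged sample of dapagliflozin 2 and 3 was at 212.8 FPKM, below the 228.2 to 230.9 FPKM of the other dapagliflozin samples, with a gap of 0.849 of the group's range. Gpx3 in m/m 3 was at 11226 FPKM, below the 12060 to 12342 FPKM of the other m/m libraries, with a gap of 0.747 of the range. Leaving out any single library kept the Gpx3 log2 fold change between db/db and m/m at 0.70 to 0.73.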

How the results depend on the processing

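The directions of the 6 members called in db/db held in all 29 alternatives. Of 290 values for the 10 genes, 268 kept direction and call in the genotype comparison and 265 in the dapagliflozin comparison. Members called lower in db/db numbered 5 with median-of-ratios scaling, in place of 3. Pooling the library sets gave 3165 called genes by genotype and 913 by dapagliflozin, 1 member lower with dapagliflozin (Prdx3, -0.78, limma adjusted p 0.0466) and 3 pathway genes; it also took the call from Mt2 (0.75) and Prdx1 (-1.19) by genotype. The 35 genes called with dapagliflozin became 223 without a filter, 19 at a mean FPKM of at least 2, 1 with array weights, 1 with only the groups compared, 479 without dapagliflozin 1 and 5, and 68 with dapagliflozin 1, 2 and 3 averaged. They ranged from 1 (without db/db vehicle 4) to 120 (without dapagliflozin 1), with 109 without dapagliflozin 5 and 3 without db/db vehicle 5; a lone vehicle sample is assumed to vary like the others. The 1 pathway gene called with dapagliflozin became 0 with median-of-ratios scaling, array weights or only the groups compared, 2 without dapagliflozin 1 and 5, and 0 to 1 without single libraries. The causes were not tested.

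Directions turned for values near 0. By genotype, Sod2 was -0.19 with median-of-ratios scaling, -0.23 pooled and -0.01 to 0.09 without single libraries. Cat was 0.10 with quantile normalization, 0.0032 with TPM rescaling and -0.14 to 0.0047 without single libraries. Gpx1 was 0.08 with quantile normalization. Prdx3 was -0.05 with median-of-ratios scaling and -0.23 pooled, and it was called with TPM rescaling, array weights or only the groups compared (0.23, 0.19 and 0.16). Glrx3 and Gpx4 were -0.01 and -0.02 with median-of-ratios scaling, and Ppargc1a and Prdx2 were -0.00061 and -0.0015 pooled. With dapagliflozin, pooling gave -0.29 for Sod2, -0.04 for Sod3, -0.84 for Cat, -0.30 for Gpx3 and -1.27 for Prdx1. Quantile normalization gave -0.01 for Sod1 and Cat. With dapagliflozin 2 and 3 separate, Sod1, Cat and Gpx3 were -0.02, -0.0021 and -0.0041, and without dapagliflozin 1 and 5 they were -0.01, -0.0004 and -0.02. Cat was -0.04 with dapagliflozin 1, 2 and 3 averaged. Without single libraries Sod1 ran from -0.03 to 0.03, Cat from -0.14 to 0.15 and Gpx3 from -0.04 to 0.07.

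Whether replicate numbers pair the samples was not settled by the check made. Same-numbered high-read libraries had correlations of deviations of 0.314, 0.155 and 0.0447. Those with different numbers had -0.246 to 0.0944. In the low-read set the check used 2 libraries per group, which can only give values equal in size (0.7 and -0.7), so it cannot decide there. With a block for the replicate number, 2952 genes were higher and 868 lower in db/db, Prdx3 was called (0.18, limma adjusted p 0.0446), 0 genes and 0 pathway genes were called with dapagliflozin (1483 at an unadjusted p under 0.05), and Cat was -0.0011 there. The dapagliflozin comparison rests on about 1.90 M reads per library, and reads were fewest for Mt2. How far this depth limits the comparison was not tested.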
